A study of Mus musculus with 6 samples.

Results

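The cytosolic ribosomal protein genes were taken from the liver RNA-seq table as the protein-coding rows with a symbol of Rpl or Rps followed by a digit, together with *Rplp0*, *Rplp1*, *Rplp2* and *Rpsa*, without S6 kinases and without symbols that contain -ps. This symbol rule gave 84 of 21297 rows. Of these, 46 code for proteins of the large (60S) subunit, 31 for proteins of the small (40S) subunit and 6 for a paralogue or a second gene copy (*Rpl3l*, *Rpl7l1*, *Rpl22l1*, *Rpl36al*, *Rps27l* and *Rps27rt*). The last, *Rps19bp1*, was taken in by its symbol alone, since it codes for a binding protein of RPS19 and not for a ribosomal protein. The livers came from male C57BL/6J mice on chow that were 8 weeks old when treatment began. They were injected intraperitoneally each week for 6 weeks with 50 mg/kg of an antisense oligonucleotide. It was a control (CON ASO, n = 3) or was directed against *Mmab* (MMAB ASO, n = 3). The mice were killed 48 h after the last dose. By the methods, mice were fasted overnight where nothing else is said. *Mmab* codes for the adenosyltransferase that makes the cobalamin cofactor of methylmalonyl-CoA mutase, and the study asked what its silencing does to gene expression in liver. Each library is 1 liver, both groups carry an oligonucleotide, and livers without one were not analysed here.

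Each ribosome holds 1 copy of most ribosomal proteins, and cells make the proteins in balanced amounts. Their mRNAs are short and abundant and begin with a C followed by a run of pyrimidines, the 5′ terminal oligopyrimidine (TOP) motif, through which mTORC1 and LARP1 control their translation. Mammalian genomes hold many processed copies of these mRNAs, mostly pseudogenes without introns. Short reads from a ribosomal protein mRNA can therefore fit several places, and the software that made the table had to divide them.

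The copies bear on every value below, so a few are shown. For *Rps10*, the row with the largest fold change, and for *Rpl11*, the coding sequence is set beside its most abundant copy, and capitals mark the bases that differ. For *Rps27* and *Rpl10*, the first codons are shown once, since *Rps27rt* on chromosome 9 and *Rpl10-ps3* on chromosome 9 have the same letters over the whole coding sequence of 255 and 645 bases.
Rps10, bases 379 to 438 of the coding sequence: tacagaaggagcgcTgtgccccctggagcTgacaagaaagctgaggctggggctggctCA
Rps10-ps2, same bases: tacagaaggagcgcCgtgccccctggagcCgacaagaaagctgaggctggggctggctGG
Rpl11, bases 56 to 115 of the coding sequence: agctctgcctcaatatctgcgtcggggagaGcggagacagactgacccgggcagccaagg
Gm10288, same bases: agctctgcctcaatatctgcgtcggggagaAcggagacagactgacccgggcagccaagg
Rps27 and Rps27rt, bases 1 to 60: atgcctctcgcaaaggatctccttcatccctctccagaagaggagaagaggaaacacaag
Rpl10 and Rpl10-ps3, bases 1 to 60: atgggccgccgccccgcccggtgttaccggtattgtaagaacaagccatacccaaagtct

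Counted from 1 at the A of the start codon, with the base of the gene first and that of the copy last, *Rps10-ps2* differed from *Rps10* at T393C, T408C, C437G, A438G and G473A over 496 compared bases. *Gm10288* differed from *Rpl11* at G86A alone over 537 bases. A read that covers none of these positions within the compared bases fits the gene and the copy equally well.

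Across GENCODE M21 (GRCm38), 582 rows of the table outside the 84 had at least 90% identity to at least 50% of the coding sequence of 1 of 78 ribosomal protein rows. The 84 rows were not counted as copies of one another, so *Rps27rt* is not among the copies of *Rps27*. Of these copies, 568 were annotated as processed pseudogenes and 11 as protein coding, 158 were named after their parent with -ps and 415 had only a Gm symbol. A mean of at least 1 CPM (counts scaled by the authors to a common library total) was reached by 176 of them. In the median ribosomal protein mRNA, 37.5% of all 100-base windows were found letter for letter in a transcript of another gene, and in 32 of 84 at least 50% were. The methods name both 45 cycles and reads of 100 bases, so the read length is unsure, and for 45-base windows the median was 53.8% and the count 47. With the longest transcript among equals in place of the shortest, the median and the count for 100-base windows were 31.6% and 26.

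The copies held more of the signal than the genes. Over the 6 livers the 84 rows summed to a mean of 3020 CPM and their copies to 5414 CPM, or 64.2% of the total. The share in copies was between 63.9% and 64.6% in every liver. For 55 ribosomal proteins the copies held more than the gene's own row, and for 20 the own row held under 10%. *Rpl10*, on the X chromosome and coding for a late-joining 60S protein, had 5.82 CPM in its own row and 309 CPM at *Rpl10-ps3*. *Rps12* had 2.31 CPM against 87.6 CPM at *Rps12-ps3*, *Rpl5* 5.37 CPM against 180 CPM at *Gm15500*, and *Rpl11* 7.61 CPM against 89.1 CPM at *Gm10288*. *Rps27*, which codes for a zinc-binding protein of the 40S subunit, had 0.719 CPM, and the intronless *Rps27rt* with the same coding sequence had 99.5 CPM. With none of the 84 rows counted as a copy of another, the lowest share in an own row was that of *Rpl9*, at 1.43%.

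**Figure D1:**
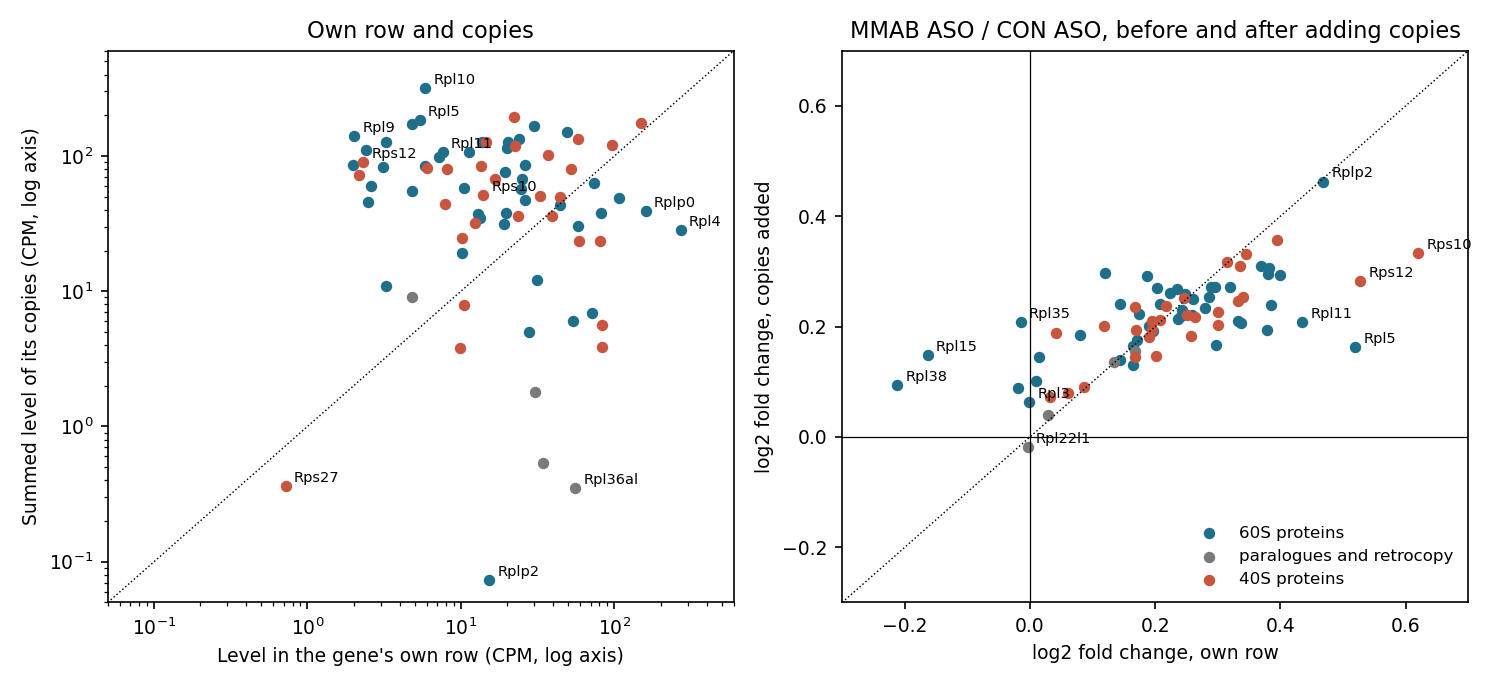
Left, the mean level over 6 livers of each gene's own row (horizontal, CPM, log axis) against the summed level of its copies (vertical, CPM, log axis) for the 78 rows with a copy, where points above the dotted line of equality hold more in copies. Right, the log2 fold change of MMAB ASO over CON ASO in the own row (horizontal) and with the copies added (vertical) for the 77 of these that were tested; the spread is narrower on the vertical axis (SD 0.078) than on the horizontal axis (SD 0.148), and *Rpl38*, *Rpl15* and *Rpl35* move from below 0 to above it.

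Levels differed widely between genes. On the scale of CPM per kb of mRNA, the median of the 84 rows was 24.3, and it was 117 when the copies were added to each gene. The highest per kb were *Rps27rt* (266 CPM per kb), *Rplp1* (215), *Rpl8* (188), *Rpl4* (176) and *Rps15* (166). The same 5 were highest with the longest transcript among equals. *Rplp1*, *Rpl8*, *Rpl4* and *Rps15* had between 68.8% and 100% of their signal in their own rows, whereas the signal of *Rps27rt* cannot be assigned to its own row, since 89.5% of its 100-base windows were found in another transcript. The 84 genes lie on 19 chromosomes, with 14 on chromosome 7 and 4 on X (*Rpl10*, *Rpl36a*, *Rpl39* and *Rps4x*).

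The libraries held an estimated 44.7 to 55.4 M counts. *Mmab* was at 5.30 to 6.83 CPM in CON ASO livers and at 1.80 to 2.69 CPM in MMAB ASO livers, so the target went with the labels. The hepatocyte markers were present at 63174 to 82409 CPM in sum. CON ASO replicate 1 stood apart, with 57.0% of its counts at protein-coding genes against 46.2% to 51.1% in the other livers, and with 25994 CPM at a residual rRNA gene against 81353 to 112456 CPM. The main results are also given with this control liver left out, and likewise with CON ASO replicate 4 left out, which was lowest for most ribosomal proteins.

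The summed level of the ribosomal protein rows was higher in MMAB ASO livers, and the groups did not overlap. The CON ASO livers (replicates 1, 2 and 4, the order used for single values throughout) had 2991, 2915 and 2481 CPM, on average 2796 ± 275 (SD, n = 3). The MMAB ASO livers (replicates 1, 2 and 4, likewise) had 3248, 3328 and 3159 CPM, on average 3245 ± 84.3 (SD, n = 3). CON ASO replicate 4 lay furthest from the other livers. The copies followed the same order of groups, with 5306, 5311 and 4461 CPM in CON ASO livers and 5829, 5946 and 5631 CPM in MMAB ASO livers. The balance between subunits did not separate the groups: the summed 60S rows were 1.30 to 1.36 times the summed 40S rows in CON ASO livers and 1.31 to 1.35 times in MMAB ASO livers. CPM are shares of a library, and in whole liver, a change in the number of cells of a type and a change of RNA per cell cannot be told apart.

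**Figure D2:**
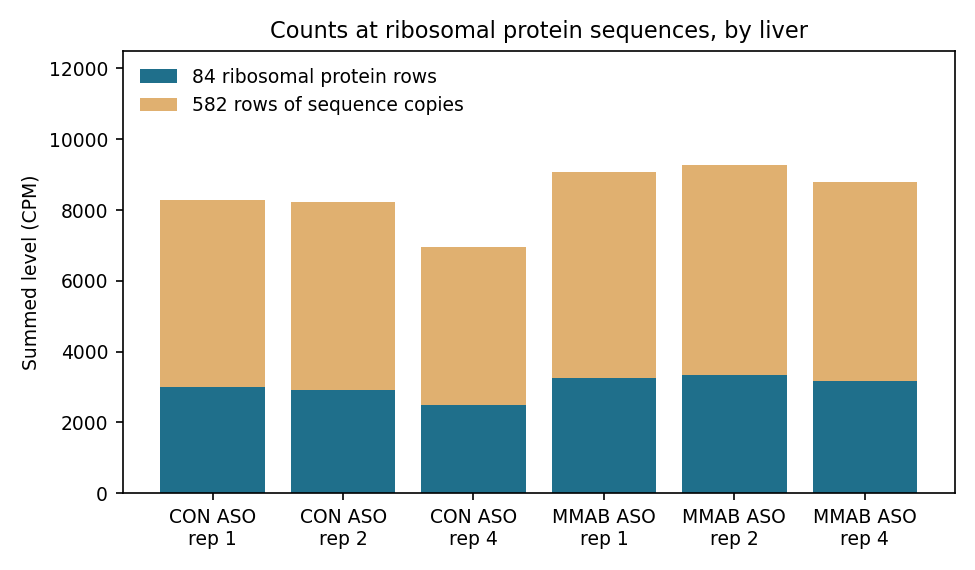
Summed CPM (vertical axis, from 0) of the 84 ribosomal protein rows (blue) and, stacked on them, of the 582 rows of their copies (sand) in each of the 6 livers. The stacks reach 6943 to 8297 CPM in CON ASO livers and 8790 to 9274 CPM in MMAB ASO livers, and CON ASO replicate 4 is the lowest.

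Of the 84 rows, 82 had a mean of at least 1 CPM and were tested with limma among 11565 genes. Only *Rps10* rose at an adjusted p under 0.05 (Benjamini-Hochberg over all tested genes), and 0 fell. Over all tested genes 1.87% were called higher and 2.22% lower, so the count of called ribosomal proteins lay near the background. At an unadjusted p under 0.05, 22 of the 82 were higher and 0 lower, where the shares over all tested genes were 9.92% and 7.85%. At the thresholds of the study (a fold change of 1.5 or more with an unadjusted p of 0.05 or less), *Rps10* was again the only one higher, and 0 were lower, where the shares were 5.52% and 3.55%. The count called higher at the adjusted p was 0 with copies added, 7 with quantile normalization and 13 with libraries scaled to the sum of protein-coding genes, where the shares of all tested genes called higher were 1.86%, 1.44% and 3.60%.

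The fold changes were small and mostly of 1 sign. Their median on the log2 scale was 0.21, against 0.03 over all tested genes, with a range from -0.21 to 0.62. The median standard error of a single gene was 0.13. Of the 82, 76 had a positive log2 fold change, where 55.6% of all tested genes did. In 45 of them every MMAB ASO liver was above every CON ASO liver, and in 0 below, where the shares over all tested genes were 13.8% and 8.91%. The rows shared their lowest liver, as described next, and are not independent measurements.

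CON ASO replicate 4 was the lowest of the 6 livers in 67 of the 82 rows, and it was the lowest for 33.1% of all tested genes. Without it the median log2 fold change was 0.14, against -0.02 over all tested genes, 69 of 82 were positive, and *Rps10* had an adjusted p of 0.144 from limma. Without CON ASO replicate 1 the median was 0.28 against 0.09 over all tested genes, and *Rps10* had an adjusted p of 0.0658. Its adjusted p from limma was 0.117 and 0.185 without MMAB ASO replicates 2 and 4. The log2 fold change moved by more than 1.5 times without CON ASO replicate 4 in 43 of the 82 rows. It fell from 0.53 to 0.34 for *Rps12*, from 0.25 to 0.16 for *Rpl8*, from 0.22 to 0.13 for *Rpl39* and from 0.17 to 0.078 for *Rps4x*. The difference between the medians of the ribosomal proteins and of all tested genes was 0.18 with all livers, and 0.16 and 0.19 with replicate 4 and replicate 1 of the CON ASO group left out.

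**Figure D3:**
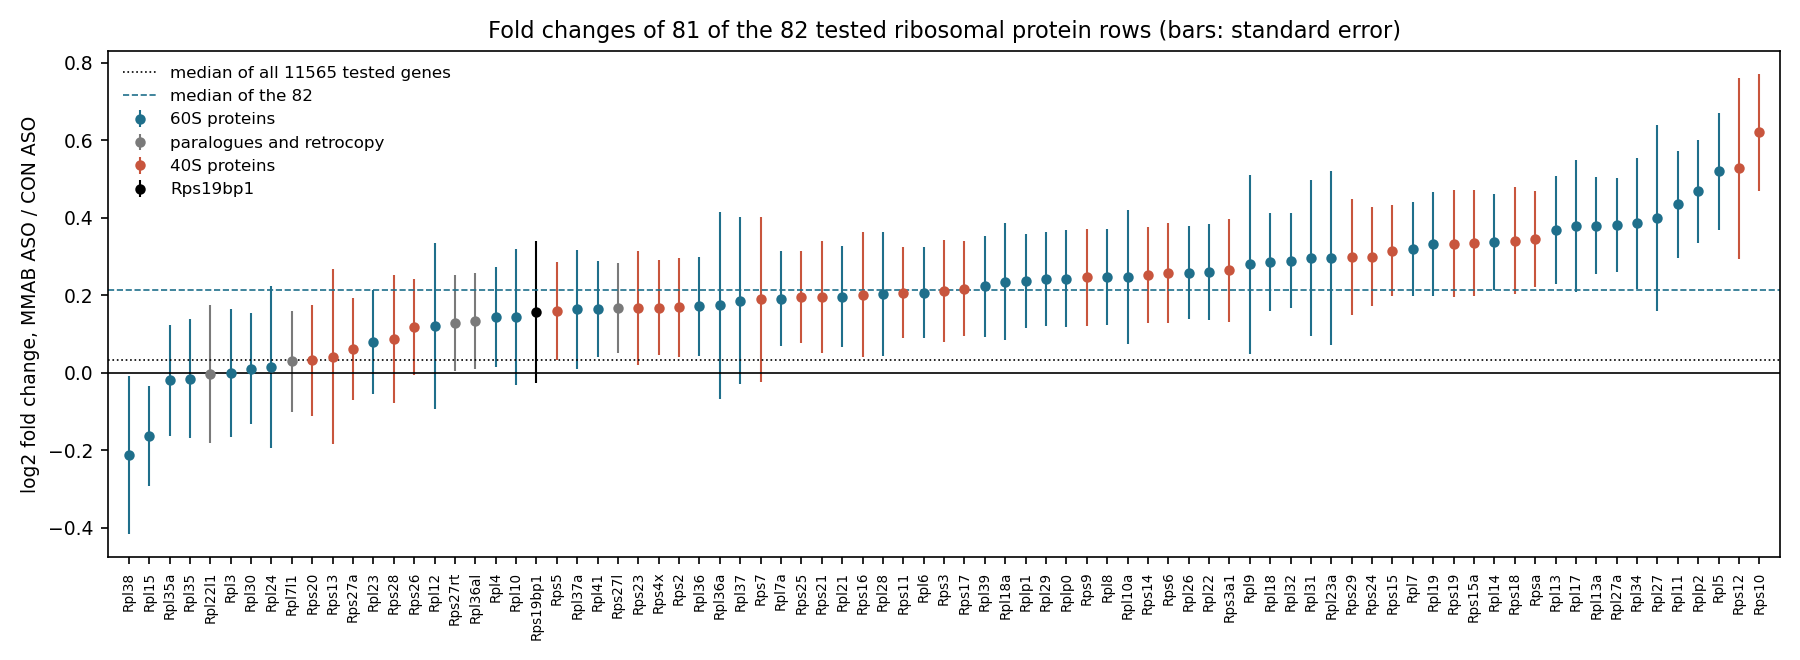
The log2 fold change of MMAB ASO over CON ASO (vertical axis, on the scale of log2 of CPM plus 0.0001) for 81 of the 82 tested rows, in ascending order, with bars of 1 standard error from limma and colours for 60S proteins, 40S proteins, paralogues and the retrocopy, and *Rps19bp1*. The values run from -0.21 for *Rpl38* to 0.62 for *Rps10*, around a median of 0.21 (dashed) that lies above the median of all 11565 tested genes (dotted, 0.03).

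In the 40S subunit all 30 tested rows had a positive log2 fold change, with a median of 0.21, and the groups did not overlap in 20. Over all tested genes 55.6% were positive, and in 13.8% the groups did not overlap with MMAB ASO higher. *Rps10*, whose protein lies in the head of the subunit near the mRNA entry, was called alone. It lies on chromosome 17 from 27630418 to 27636669 on the minus strand (GRCm38). CON ASO livers had 11.5, 11.7 and 9.77 CPM, or 11.0 ± 1.06 (SD, n = 3), and MMAB ASO livers 14.0, 18.6 and 18.3 CPM, or 17.0 ± 2.54 (SD, n = 3). The groups did not overlap, and MMAB ASO replicate 1 was nearest to the control livers. The limma fit gave a log2 fold change of 0.62 with a standard error of 0.15 and an adjusted p of 0.0432. The exact permutation p was 0.1 (two-sided), which is the lowest value possible with 3 livers in each group.

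The call of *Rps10* did not hold once its copies were counted with it. Its own row held 21.4% of the signal. *Rps10-ps2* had 41.3, 42.6 and 36.9 CPM in CON ASO livers and 47.9, 50.2 and 45.4 CPM in MMAB ASO livers. With this copy and *Rps10-ps1* added, CON ASO livers had 60.1, 61.4 and 52.2 CPM and MMAB ASO livers 69.9, 77.2 and 71.4 CPM. The groups still did not overlap, but the log2 fold change fell to 0.33 with a standard error of 0.12, and its adjusted p from limma was 0.168.

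*Rps12*, which codes for a 40S protein at the beak of the head, had the next largest log2 fold change. Its own row had 2.29, 1.99 and 1.44 CPM in CON ASO livers and 3.19, 2.41 and 2.56 CPM in MMAB ASO livers, and the lowest MMAB ASO value was close to the highest CON ASO value. The log2 fold change of 0.53 (standard error 0.23) had an adjusted p of 0.262, and it was 0.28 with the copies added (adjusted p = 0.277). *Rpsa*, the 40S protein also known as the laminin receptor, had 45.8 to 56.4 CPM against 61.4 to 69.5 CPM, a log2 fold change of 0.35 (adjusted p = 0.166). The own row of *Rpsa* held 30.3% of its signal, and with copies added the log2 fold change was 0.33. *Rps15* had 67.4 to 77.8 CPM against 89.8 to 95.5 CPM, with 93.6% of the signal in its own row and a log2 fold change of 0.32 (adjusted p = 0.181). These 3 rows did not overlap between the groups and did not pass the test.

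*Rps6*, the substrate of the S6 kinases, had 18.0 to 22.3 CPM in CON ASO livers and 23.0 to 24.9 CPM in MMAB ASO livers, with a log2 fold change of 0.26 (adjusted p = 0.325). At the low end of the subunit by own row, *Rps20* had 20.7 to 25.5 CPM against 20.4 to 27.2 CPM. *Rps13* had 1.84 to 2.35 CPM against 1.79 to 2.68 CPM, and the groups overlapped in both. The own rows held 10.2%, 39.6% and 2.88% of the signal of *Rps6*, *Rps20* and *Rps13*. With copies added, the log2 fold changes of these genes were 0.18, 0.07 and 0.19. *Rps27* was under the filter, at 0.542 to 0.969 CPM in CON ASO livers and 0.501 to 1.05 CPM in MMAB ASO livers.

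In the 60S subunit 41 of 46 tested rows had a positive log2 fold change, with a median of 0.24, and the groups did not overlap in 24. None passed the test: 13 had an unadjusted p under 0.05 in limma and all 13 were higher. Over all tested genes 55.6% were positive, 13.8% did not overlap with MMAB ASO higher, and 9.92% were higher at this unadjusted p. *Rpl5* and *Rpl11* code for the proteins that bind 5S rRNA and, outside the ribosome, the p53 inhibitor MDM2. *Rpl5*, on chromosome 5 from 107900502 to 107909005, had 4.45, 4.64 and 4.17 CPM in CON ASO livers and 5.96, 6.49 and 6.55 CPM in MMAB ASO livers. *Rpl11*, on chromosome 4 from 136028265 to 136053428, had 6.78, 6.32 and 6.32 CPM against 9.06, 8.43 and 8.76 CPM. Both had narrow groups that lay apart, with log2 fold changes of 0.52 (standard error 0.15, adjusted p = 0.0825) and 0.43 (standard error 0.14, adjusted p = 0.111).

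For these 2 genes the copies held most of the signal and moved less. *Gm15500*, whose sequence matches the *Rpl5* coding sequence base for base, had 187, 185 and 141 CPM in CON ASO livers and 181, 200 and 187 CPM in MMAB ASO livers, with overlapping groups. With all copies added, the log2 fold change of *Rpl5* was 0.16 (standard error 0.14, adjusted p = 0.603) and that of *Rpl11* 0.21 (standard error 0.12, adjusted p = 0.388).

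The acidic stalk of the 60S subunit, which recruits elongation factors, is built from *Rplp0*, *Rplp1* and *Rplp2*. *Rplp2*, on chromosome 7 from 141447370 to 141451585, had 12.1, 13.9 and 12.4 CPM in CON ASO livers and 16.0, 18.9 and 18.4 CPM in MMAB ASO livers. The groups did not overlap, and 99.5% of the signal lay in its own row. The log2 fold change of 0.47 had a standard error of 0.13 and an adjusted p of 0.0748. With its copy added it was 0.46 (adjusted p = 0.078), the smallest adjusted p of any ribosomal protein once copies were added. *Rplp0*, a common reference gene in qPCR, had 164, 144 and 132 CPM against 174, 178 and 167 CPM, for which the log2 fold change was 0.24 with a standard error of 0.13 (adjusted p = 0.34). *Rplp1* had 107, 101 and 88.6 CPM against 118, 119 and 111 CPM, also 0.24 (standard error 0.12, adjusted p = 0.338). Neither of the latter overlapped between the groups, and CON ASO replicate 4 was the lowest liver in both.

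*Rpl8*, with no copy in the table, had 155, 156 and 129 CPM in CON ASO livers and 174, 177 and 170 CPM in MMAB ASO livers, with a log2 fold change of 0.25 (adjusted p = 0.329). *Rpl4*, the row with the highest CPM, had 280, 262 and 229 CPM against 280, 300 and 270 CPM, with overlapping groups. *Rpl13a* had 62.5 to 79.9 CPM against 91.2 to 95.7 CPM, a log2 fold change of 0.38 (adjusted p = 0.128), and *Rpl27a* 19.2 to 22.5 CPM against 26.9 to 27.4 CPM, also 0.38 (adjusted p = 0.113). The own rows held 68.4% of the signal of *Rpl13a* and 15.2% of that of *Rpl27a*. With copies added their log2 fold changes were 0.30 and 0.31.

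The 5 lowest log2 fold changes belonged to *Rpl38* (-0.21), *Rpl15* (-0.16), *Rpl35a* (-0.02), *Rpl35* (-0.02) and *Rpl22l1* (0.00), and none passed the test. *Rpl38* had 3.06, 4.05 and 3.30 CPM in CON ASO livers and 3.32, 3.32 and 2.39 CPM in MMAB ASO livers. *Rpl15* had 21.9, 20.3 and 19.6 CPM against 18.0, 20.4 and 16.9 CPM. The groups overlapped in both. With copies added their log2 fold changes were 0.09 and 0.15, and *Rpl35a* and *Rpl35* were at 0.09 and 0.21.

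**Figure D4:**
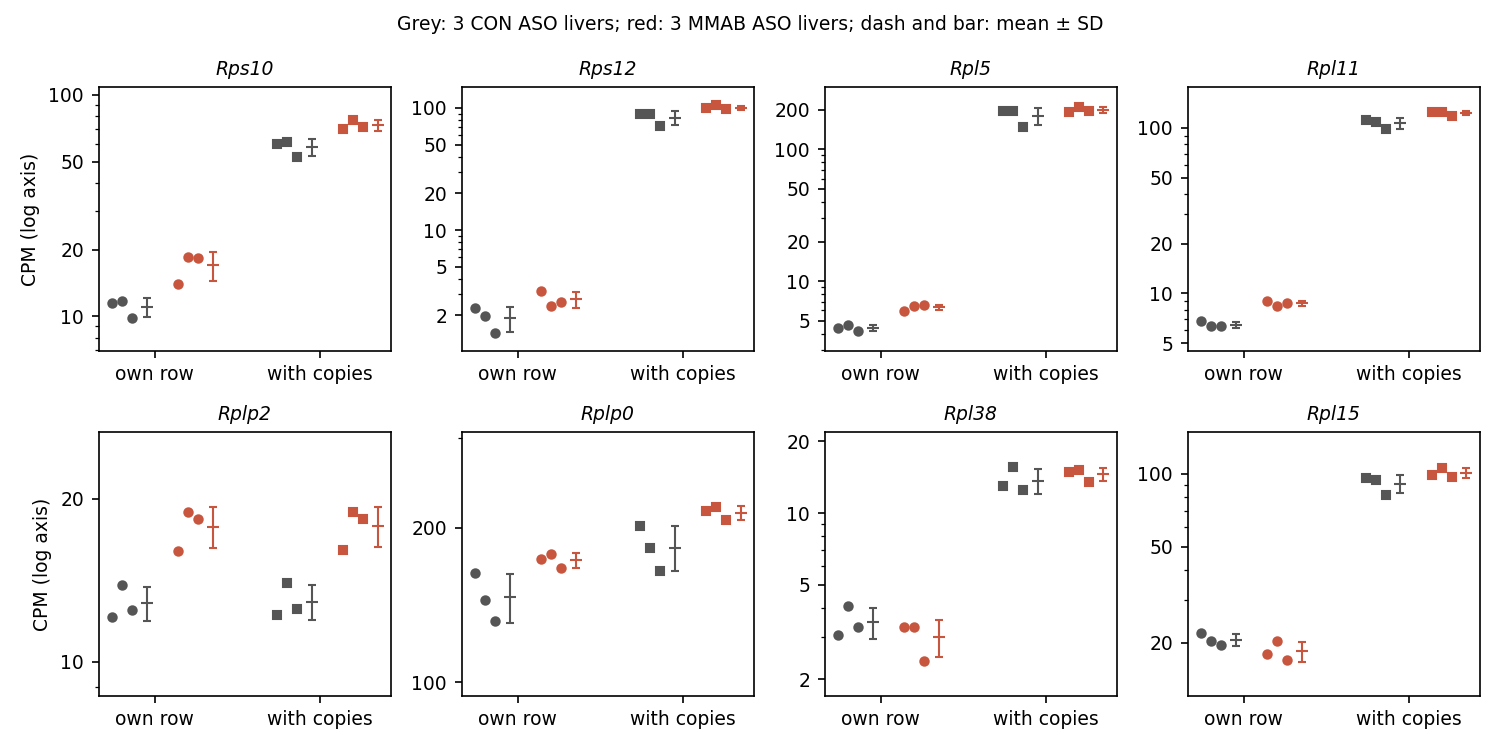
CPM (vertical, log axis, scaled separately in each panel) of 8 ribosomal protein genes in the own row (circles) and with the copies added (squares), for 3 CON ASO livers (grey) and 3 MMAB ASO livers (red), with mean ± SD beside the points. In *Rps10*, *Rpl5* and *Rpl11* the own rows lie apart, and adding the copies raises the level and narrows the gap; in *Rpl38* and *Rpl15* the groups overlap in the own row.

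The log2 fold changes were less spread once copies were added. Over the 77 tested rows with a copy, their SD was 0.148 in the own rows and 0.078 with copies added. Summing rows averages their changes, so a narrower spread can come from the sum alone, and this was not tested. With copies added, 83 rows passed the filter, 82 of them with a positive log2 fold change. Their median was 0.21, and the range ran from -0.02 to 0.46. The row that joined was *Rps27*, at a mean of 1.08 CPM and a log2 fold change of 0.10 (standard error 0.29). *Rps27rt* was not added to it, since none of the 84 rows was counted as a copy of another. None of the 83 was called, and 18 were higher at an unadjusted p under 0.05 in limma. Without copies added, 55.6% of all tested genes were positive and 9.92% were higher at this unadjusted p. Of the tested rows, 14 had under 10% of their 100-base windows in another transcript. All 14 were positive, with a median of 0.20 and a range from 0.03 to 0.34. The 14 are not free of copies. Own rows held 29.2% of the signal of *Rps15a*, 37.9% for *Rpl39* and 39.6% for *Rps20*. They held at least 72% for the others. Windows of *Rps15a* and *Rps20* were taken over long transcripts, of 5130 and 3706 bases. *Rps19bp1*, *Rpl7l1* and *Rps27l* are also among the 14. The groups did not overlap in 8 of the 14, where the share over all tested genes was 13.8% with MMAB ASO higher. With 45-base windows 6 rows were under 10%, all 6 positive with a median of 0.19, and the groups did not overlap in 3. *Rps15a* and *Rps20* were among these 6 as well.

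Paralogues and the second gene copy *Rps27rt* had a lower median log2 fold change than the 60S and 40S rows, at 0.13 over 5 tested rows. This median is the value of *Rps27rt*, whose signal cannot be assigned to its own row. It was not tested against the medians of the subunits. *Rpl22l1* had 4.27 to 5.73 CPM in CON ASO livers and 4.38 to 5.40 CPM in MMAB ASO livers, whereas *Rpl22*, which its protein can replace, had 23.3 to 26.6 CPM and 28.1 to 32.7 CPM, a log2 fold change of 0.26 (adjusted p = 0.301). The own row held 34.6% of the signal of *Rpl22l1* and 84.9% of that of *Rpl22*. *Rpl7l1* had 32.4 to 35.4 CPM against 30.8 to 39.8 CPM, and *Rpl7* 57.6 to 70.3 CPM against 78.4 to 83.8 CPM, a log2 fold change of 0.32 (adjusted p = 0.192). *Rps27l*, a gene induced by p53, had 27.3 to 30.5 CPM against 31.5 to 33.7 CPM, a log2 fold change of 0.17 (adjusted p = 0.507).

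*Rpl36al* had 48.9 to 58.1 CPM in CON ASO livers and 52.7 to 61.7 CPM in MMAB ASO livers. The own row of *Rpl36a* had 1.90 to 3.24 CPM and 2.37 to 2.81 CPM, and both genes overlapped. The own row held 5.10% of the signal of *Rpl36a* and 99.4% of that of *Rpl36al*. Of the 100-base windows of *Rpl36al*, 59.0% were found in another transcript, so its signal cannot be wholly assigned to its own row. With copies added the means over the 6 livers were 48.3 CPM for *Rpl36a* and 55.9 CPM for *Rpl36al*. *Rpl39* had 15.5 to 19.2 CPM against 20.2 to 21.2 CPM, a log2 fold change of 0.22 (adjusted p = 0.409). The own row of *Rpl39* held 37.9% of its signal, and with copies added the log2 fold change was 0.26. *Rpl3* overlapped, at 11.1 to 16.9 CPM and 12.6 to 15.2 CPM in its own row, which held 9.68% of its signal. Its paralogue *Rpl3l*, a gene of heart and skeletal muscle, was at no more than 3 estimated counts in any liver, for which no fold is given. *Rps4x* had 43.3 to 52.3 CPM against 53.4 to 56.4 CPM, a log2 fold change of 0.17 (adjusted p = 0.53), and the pseudogene *Rps4l*, outside the rule, had 12.6 to 16.0 CPM against 7.76 to 14.96 CPM. The own row of *Rps4x* held 39.5% of its signal, and with copies added the log2 fold change was 0.14. *Rps27rt* overlapped, at 83.6 to 102 CPM and 100 to 107 CPM, as did *Rps19bp1*, at 4.68 to 6.30 CPM and 4.85 to 6.89 CPM.

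Of 3 tested ribosomal proteins that carry symbols outside the rule, 0 were called in either direction by limma. All 3 had a positive log2 fold change, with a median of 0.29, 1 was higher at an unadjusted p under 0.05, and the groups did not overlap in 2. The shares over all tested genes were 55.6%, 9.92% and 13.8%.

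In 5 lists of other genes of translation and ribosome making, 0 genes were called in either direction by limma. Over all tested genes 55.6% were positive, and 9.92% were higher and 7.85% lower at an unadjusted p under 0.05. For 40 tested ribosome biogenesis genes the median log2 fold change was 0.18 and 33 were positive, with 3 higher and 0 lower at an unadjusted p under 0.05. For 19 other translation genes with TOP mRNAs, such as elongation factors, the median was 0.07 and 13 were positive, with 1 higher and 0 lower. For 30 other initiation and elongation factors it was 0.01 and 18 were positive, with 1 higher and 1 lower. For 20 genes of mTORC1 and Myc control of translation it was 0.06 and 12 were positive, with 0 higher and 0 lower. For 77 mitochondrial ribosomal proteins, nuclear-coded parts of a separate ribosome, the median was 0.04 and 49 were positive, with 2 higher and 0 lower. Their summed level overlapped between the groups, at 892 to 1056 CPM and 942 to 1066 CPM.

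Markers of other liver cells moved with the same groups, where 1.87% of all tested genes were called higher and 2.22% lower. Of 14 sinusoidal endothelial markers 9 were called higher and 0 lower, and their summed level was 53.0 to 76.9 CPM in CON ASO livers and 115 to 132 CPM in MMAB ASO livers. Of 10 tested stellate cell markers 5 were called higher, with sums of 84.6 to 112 CPM and 140 to 172 CPM. Of 11 tested Kupffer cell and macrophage markers 2 were called higher, with overlapping sums of 33.6 to 119 CPM and 76.2 to 127 CPM. Another, *Marco*, was lower without overlap at an unadjusted p under 0.05 in limma, and its adjusted p was 0.108. It had 15.7, 0.813 and 0.805 CPM in CON ASO livers and 0.134 to 0.426 CPM in MMAB ASO livers. The value of 15.7 CPM is that of CON ASO replicate 1 alone, the liver that stood apart. Of 13 hepatocyte markers 0 were called in either direction, 0 were higher and 1 (*Trf*) was lower at an unadjusted p under 0.05, and the sums were 71756 to 82409 CPM and 63174 to 77538 CPM. Of 5 tested erythroid genes 2 were called higher, with sums of 234 to 298 CPM and 322 to 467 CPM, as was 1 of 2 tested cholangiocyte markers (*Spp1*), and 0 of 1 tested lymphocyte marker. The erythroid gene *Alas2* was lower without overlap at an unadjusted p under 0.05, at 26.5 to 31.7 CPM in CON ASO livers and 19.4 to 22.6 CPM in MMAB ASO livers (adjusted p = 0.0802). None of these lists had a marker under 3 counts in every liver. The part of these cells in the ribosomal protein values was not tested.

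The rows whose pattern over the 6 livers was most like the mean log2 value of the tested ribosomal proteins were copies of them. Among 5164 other genes that averaged 10 CPM or more, the highest Pearson correlations were those of *Rps23-ps1* (0.999), *Rpl17-ps10* (0.994), *Rpl9-ps6* (0.994), *Gm12174* (0.994), a copy of *Rpl7*, and *Rpsa-ps10* (0.991). Of the 209 genes with a correlation over 0.9, 57 were copies, and 90 copies were among the genes compared. These are correlations over 6 livers that share library totals, and copies share reads with the genes.

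The start sites carry what the rule did not use. RefSeq promoters (GRCm38.p6) matched 64 of the 84 symbols. A C at the annotated start followed by at least 4 pyrimidines was found in 14 of 64 (21.9%), against 3.01% of 27025 genes. The bases from 15 before the start to 14 after are shown for the gene called by the test, for the stalk protein with the smallest adjusted p once copies were added, for one of the lowest rows, and for the S6 kinase substrate, with the pyrimidine run from the start in capitals.
Rps10, chr17:27635230-27635259, minus strand: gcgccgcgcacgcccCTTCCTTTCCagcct
Rplp2, chr7:141447636-141447665, plus strand: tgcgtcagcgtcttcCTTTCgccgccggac
Rpl35, chr2:39005117-39005146, minus strand: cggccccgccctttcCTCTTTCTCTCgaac
Rps6, chr4:86857353-86857382, minus strand: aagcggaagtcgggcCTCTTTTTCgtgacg

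All genes shown are among the 14 of 64 with the C and pyrimidines at the annotated start, and no gene without them is shown. *Rpl22l1*, also among the lowest rows, had no such start. The capitalised run was 10, 5, 11 and 9 bases long, and its relation to the fold changes was not tested. CCGGAAG, a core of ETS factor motifs, was found on either strand between 250 bases before and 50 after the start in 25 of 64 (39.1%), against 21.2% of 8271 other tested genes and 9.93% of all 27025. A match is a description of letters and not a bound site.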

How the data were processed

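Total liver RNA was depleted of rRNA and sequenced by the authors, who used PartekFlow 8.0.19.0405 to align reads by STAR to the genome mmu10, estimated abundance with the Partek E/M algorithm, which divides reads between places they fit, scaled to the total count, added 0.0001 and took log2. The deposited values are these log2 CPM values, 1 column per liver, and all 6 columns were matched to samples by name. Whether counting used strand is not given in the sources used here. The labels and the methods name different sequencers. Steps between low values gave 44.7 to 55.4 M counts per library, but only 53.0% to 54.7% of values up to 20 counts came out whole (within 0.01), so no count test was run. A single count was worth 0.0181 to 0.0224 CPM.

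Genes averaging 1 CPM or more (11565) were compared, 3 livers against 3, by limma 3.58.1 (R 4.3.3) under a trended variance prior, no covariate and Benjamini-Hochberg adjustment over all tested genes, after the fit was tested on simulated data. Fold changes are on the log2(CPM + 0.0001) scale, and means and SDs on linear CPM. The thresholds of the study were applied to limma, which stands in for its GSA test. Copies were found with BLAST 2.17.0 against GENCODE M21 spliced transcripts (at least 90% identity over at least 50% of the coding sequence, outside the locus and outside the 84 rows, transcript at most 2 times the mRNA length). Each gene was represented by its APPRIS principal transcript, and the shortest of equals was taken after the lengths had been seen. The genes, the lists and the named genes were chosen with earlier results of these data known. Named genes are those called, those at the thresholds of the study, the 5 highest and 5 lowest fold changes, the 5 highest CPM per kb, rows under the filter, paralogue pairs, *Rps19bp1*, the stalk genes, *Rpsa*, *Rpl5* and *Rpl11*. *Rps6*, *Rps13*, *Rps20*, *Rpl13a*, *Rpl27a*, *Rpl9*, *Trf*, *Marco* and *Alas2* were added after their values were seen. Some genes are not reported here. Python 3.11.15, pandas 2.3.3 and matplotlib 3.10.9 were used.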

Additional observations from a re-analysis of the deposited data

How the results depend on the processing

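The count of ribosomal proteins called higher depended on the scaling and on how copies were counted. It was 1 as reported, 2 with median-ratio scaling, 7 with quantile normalization and 13 with libraries scaled to 1 common protein-coding sum, a scaling that raised the median of all tested genes to 0.12. The shares of all tested genes called higher were 1.87%, 1.39%, 1.44% and 3.60%. It was 0 with no filter, with no trend in the variance prior, and with the copies of each gene added by symbol or by sequence, the latter chosen after seeing the data. Leaving out each library in turn gave 0 to 1 and it was 0 when replicate 1 or 4 of CON ASO, or replicate 2 or 4 of MMAB ASO, was left out. At the thresholds of the study the count of 1 became 0 with a pseudocount of 1 and with copies added by symbol or by sequence, 3 with scaling to the protein-coding sum, and 0 to 2 when a library was left out (2 when this was replicate 1 of CON ASO, 0 when it was replicate 4 of either group). The counts of lower ribosomal proteins were 0 in every setting. Among the other lists, the counts of 0 called higher became 1 for ribosome biogenesis with quantile normalization and, with scaling to the protein-coding sum, 2 for ribosome biogenesis, 1 for initiation and elongation factors and 1 for the ribosomal proteins with other symbols. The median log2 fold change was 0.19 to 0.30 over the other settings and 0.14 to 0.28 with a library left out. The groups did not overlap, with MMAB ASO higher, in 41 to 58 and in 45 to 56. The shares over all tested genes were 11.5% to 25% and 15.7% to 26.9%, against 13.8% as reported. The 41 were of 69 rows tested with a filter at 5 CPM, and the 58 of 83 rows with copies added by sequence. The median lay 0.18 above that of all tested genes as reported, 0.13 with no filter, 0.21 with a filter at 5 CPM, 0.22 with quantile normalization, and 0.16 to 0.23 with a library left out. Median-ratio and protein-coding scaling cannot move this difference, since they multiply each library by 1 factor.

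The replicate numbers did not pair the livers, since the correlations of same-numbered deviations were -0.02, 0.05 and -0.01. With the replicate block, 0 ribosomal proteins were called, and the adjusted p of *Rps10* was 0.0595 from limma.

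Some signs turned. With copies added by symbol and by sequence, the log2 fold change was 0.11 and 0.094 for *Rpl38*, 0.18 and 0.15 for *Rpl15*, 0.082 and 0.089 for *Rpl35a*, and 0.069 and 0.063 for *Rpl3*. It was 0.21 for *Rpl35* by sequence. With scaling to the protein-coding sum it was 0.070 for *Rpl35a*, 0.074 for *Rpl35*, 0.085 for *Rpl22l1* and 0.087 for *Rpl3*. With a library left out, it ran from -0.13 to 0.086 for *Rpl35a*, from -0.13 to 0.049 for *Rpl35*, from -0.097 to 0.13 for *Rpl22l1*, from -0.15 to 0.16 for *Rpl3* and from -0.070 to 0.11 for *Rpl7l1*. The cause of these changes was not tested. The log2 fold change of *Rps10* was 0.33 to 0.71 over the other settings, with adjusted p from 0.0311 to 0.168, and 0.54 to 0.75 with a library left out, with adjusted p from 0.0302 to 0.185.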
